A study of Mus musculus with 16 samples.

Results

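Insulin-like growth factor (IGF), insulin and Akt signalling was described through 10 genes, selected by symbol from the 11710 genes counted: Igf1, Igfbp4, Igfbp5, Igf1r, Insr, Irs1, Akt1, Akt2, Ddit4 and Eif4ebp1. All 10 were present and passed the filter on low counts. RNA was sequenced from mouse rotator cuff muscle in 16 samples, 4 in each of 4 groups. The groups were unoperated C57BL/6J (BL6), operated C57BL/6J, unoperated MRL/MpJ (MRL) and operated MRL/MpJ, each strain being an inbred line without a named transgene. The operation removed the tendon and cut the nerve supply together, so these injuries cannot be told apart, and the controls had no operation rather than a sham one. The series text names the infraspinatus and the sample labels the supraspinatus. Age, sex and the time after surgery are not given in the sources used here. Nothing in the labels says that the samples of a group came from separate animals, so p-values measure the spread between these samples, which may be technical.

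IGF-1 and insulin bind the related receptors encoded by Igf1r and Insr, and IGF-binding proteins hold IGFs outside the cell and set how much reaches the receptor. The active receptors recruit adaptors such as IRS1, which brings PI3-kinase to the membrane and so activates Akt. In muscle fibres Akt promotes glucose uptake, restrains the FoxO factors that drive protein breakdown, and activates mTOR complex 1, which releases translation from repression by 4E-BP1 (Eif4ebp1). The stress protein REDD1 (Ddit4) restrains mTOR complex 1.

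Total counts ran from 24323862 to 43552964 per sample. At these depths 3 counts, taken as the smallest level that can be read, correspond to 0.0689 to 0.123 per 1000000 counts, without TMM factors. All levels below are in CPM (counts per 1000000 counts of the sample, scaled with TMM factors). The lowest count of any of the 10 genes in a sample was 225, for Igf1. Muscle fibre markers summed to between 39878 and 126331 CPM in all samples, and all 8 were counted. 3 samples that stood apart on different measures were picked after seeing the data and are followed below. They are replicate 4 of operated BL6, replicate 1 of unoperated MRL and replicate 4 of operated MRL. The mitochondrially encoded genes took 11.8% of counts in replicate 4 of operated MRL, against 20.1% to 24.9% in the other operated MRL samples and at most 11.6% in unoperated MRL. On the first principal component, replicate 1 of unoperated MRL lay at -7.49 and the other unoperated MRL samples between -44.9 and -38.7, and replicate 4 of operated BL6 lay highest of all, at 86.1. Replicate 2 of operated BL6, not among the 3, lay lowest of its group on that component, at 16.7. Replicates 1 and 3 of that group lay at 44.6 and 51.0. Bulk counts cannot tell fewer cells of a type from less RNA per cell.

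Surgery in BL6 raised 3 of the 10 genes (Igf1, Igfbp4 and Ddit4) and lowered 5 (Igfbp5, Igf1r, Insr, Irs1 and Akt2). A gene was called where edgeR's quasi-likelihood (QL) test gave a Benjamini-Hochberg adjusted p under 0.05. Of all 11709 genes tested, 67.9% were called in that comparison, 35.1% higher and 32.8% lower, so 8 of 10 is close to the background. In 7 of the 10 genes no operated BL6 sample overlapped an unoperated one, which held for 56.8% of all genes. In MRL, surgery lowered 2 of the 10 genes (Igfbp5 and Insr) and raised none, where 45% of all genes were called, 22.3% higher and 22.7% lower. The groups of MRL did not overlap in 2 of the 10 genes, Igf1 and Igfbp4, beside 33.7% of all genes, and neither of these was called. The median log2 fold change of the 10 genes was -0.08 in BL6 and -0.18 in MRL, beside 0.04 and 0.01 over all genes tested.

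**Figure D1:**
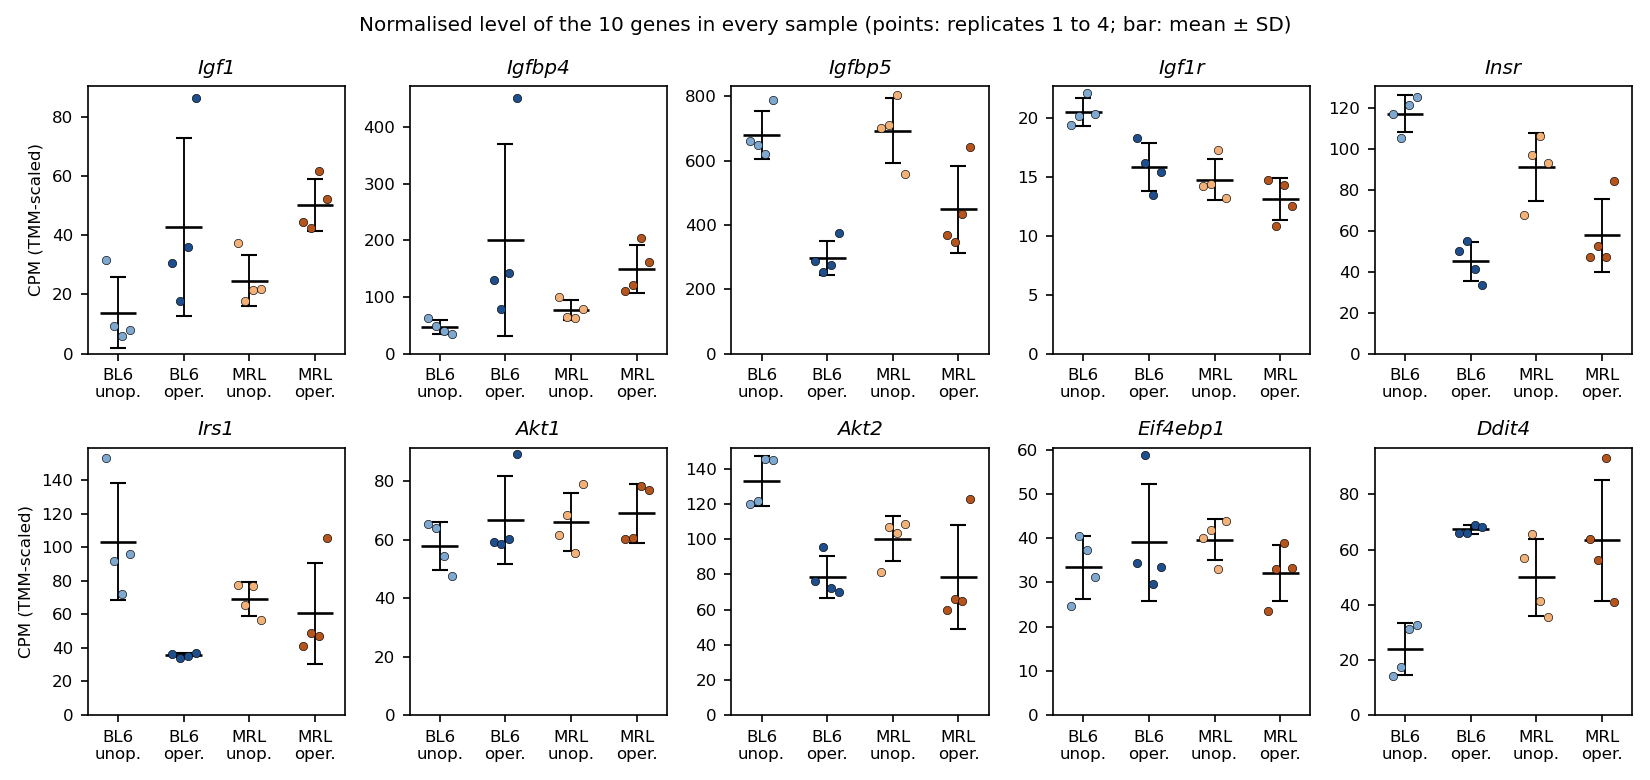
Level of each of the 10 genes in CPM (TMM-scaled, linear axes from 0) in the 4 samples of each group; points are samples in the order of replicates 1 to 4, and bars are the mean ± SD (n = 4). Igfbp5, Insr, Irs1 and Akt2 lie lower in operated BL6 than in unoperated BL6 without overlap, and replicate 4 of operated MRL, the right-most point of its group, lies at or above 84.4 CPM for Insr, Irs1 and Akt2.

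Igf1 (ENSMUSG00000020053; GRCm38 chromosome 10, 87858265 to 87937042, plus strand) encodes the growth factor itself. In unoperated BL6 it was at 31.8, 9.41, 5.95 and 8.09 CPM in replicates 1 to 4, and in operated BL6 at 30.6, 17.6, 36.0 and 86.3 CPM. The groups overlapped, because replicate 1 of unoperated BL6 lay above 2 operated samples. The log2 fold change was 1.63 (SE 0.51, adjusted p = 0.00986, edgeR's QL test). Without replicate 4 of operated BL6 it was 1.03 and no longer called, with an adjusted p (edgeR) of 0.0596, the highest among the alternatives for this gene. In unoperated MRL, Igf1 was at 37.4, 17.8, 21.5 and 21.8 CPM, and in operated MRL at 44.4, 42.3, 61.7 and 52.3 CPM. All operated MRL samples lay above all unoperated ones, with a log2 fold change of 1.03 that was not called (SE 0.50, adjusted p = 0.0987, same test). Leaving out the 3 samples that stood apart gave 1.27 in MRL, which was called (adjusted p = 0.0317, edgeR's QL test), and 1.02 in BL6, which was not called.

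Igfbp4 (ENSMUSG00000017493; chromosome 11, 99041244 to 99054392, plus strand) encodes a binding protein that inhibits IGF action until it is cut by a protease. Its level was 62.5, 49.1, 40.2 and 34.4 CPM in unoperated BL6 and 130, 78.8, 141 and 451 CPM in operated BL6. Every operated sample lay above every unoperated one, and replicate 4 stood far above the rest. The gene rose by 2.11 on the log2 scale (SE 0.42, adjusted p = 0.000538, edgeR's QL test), and by 1.32 without replicate 4 of operated BL6, a value still called. In MRL it went from 100.6, 64.0, 61.9 and 78.1 CPM to 110.1, 121, 204 and 162 CPM. The MRL groups did not overlap either, but the log2 fold change of 0.97 (SE 0.41) was not called (adjusted p = 0.0639, same test). Without the 3 samples that stood apart it was 1.08 and called (adjusted p = 0.00364, same test).

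Igf1 and Igfbp4 varied together: the Pearson r of their log2 CPM was 0.907 over the 16 samples and 0.835 after each group's mean was taken out, where points share libraries and depth. Summed markers of macrophages and of fibroblasts and mesenchymal progenitors are set beside both genes here, and no correlation with the sums was computed. Summed CPM of the 8 macrophage markers, none missing from the table, ran from 28.4 to 74.9 in unoperated BL6, 62.1 to 410 in operated BL6, 56.3 to 230 in unoperated MRL and 92.9 to 180 in operated MRL. The highest BL6 sum belonged to replicate 4 of the operated group, which also held the highest Igf1 and Igfbp4 levels of the 16 samples. Its summed adipocyte markers, at 2221 CPM, were likewise the highest of the 16. The highest MRL macrophage sum, 230 CPM, was that of unoperated replicate 1, whose Igf1 of 37.4 CPM lay below every operated MRL sample. The 7 fibroblast and mesenchymal progenitor markers summed to 611 to 1455 CPM in unoperated BL6, 979 to 5516 in operated BL6, 1241 to 2064 in unoperated MRL and 1631 to 3083 in operated MRL. In BL6, 6 of 8 macrophage markers and 4 of 7 fibroblast markers were called higher after surgery, beside 35.1% of all genes, and in MRL 1 of 8 and 1 of 7, beside 22.3%. The macrophage markers did not all move 1 way in MRL. Their median log2 fold change was 0.46, but Adgre1 (-1.54) and Itgam (-1.16) had negative values, neither called. Without the 3 samples that stood apart, 8 of 8 macrophage markers were called higher in BL6 and 6 of 8 in MRL, and 2 of 7 fibroblast markers in each strain. That run called 67.6% of all genes in BL6, 3882 higher and 4032 lower, and 62.4% in MRL, 3638 higher and 3665 lower. Replicate 1 of unoperated BL6, the sample with 31.8 CPM of Igf1, had the highest sums of its group on both lists, 74.9 and 1455 CPM. No marker on either list was at 0 in a sample, and the part of these cells in the Igf1 and Igfbp4 results was not tested.

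**Figure D2:**
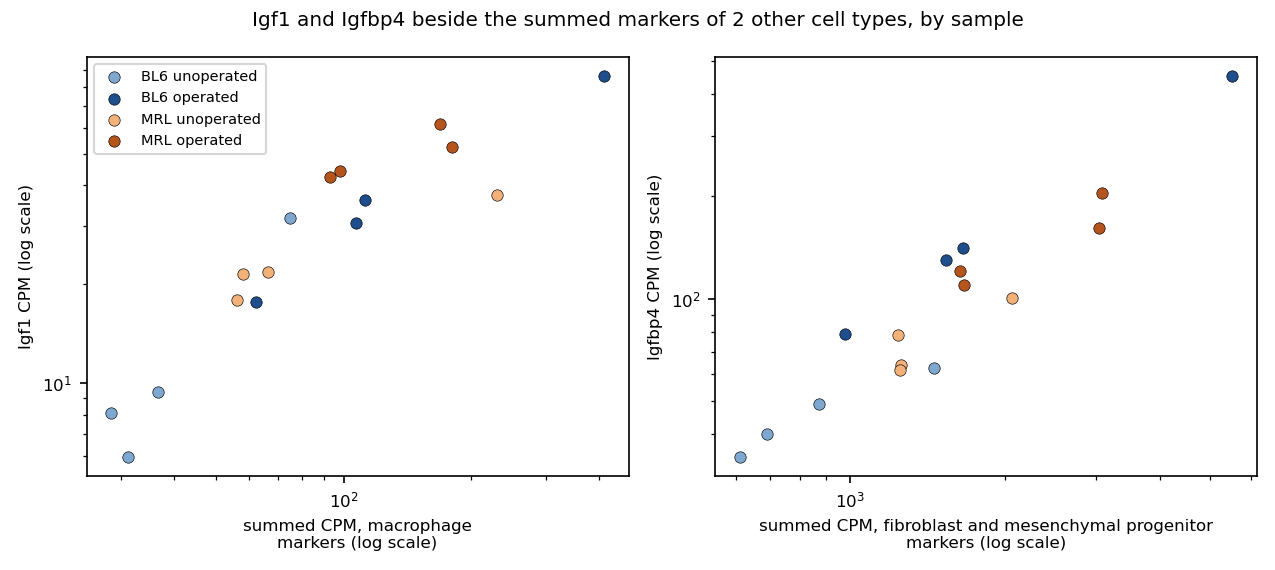
Igf1 against the summed macrophage markers (left) and Igfbp4 against the summed fibroblast and mesenchymal progenitor markers (right), in CPM on log axes, with 1 point per sample coloured by group. Replicate 4 of operated BL6 is the top right point of both panels, at 86.3 CPM of Igf1 and 451 CPM of Igfbp4.

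Igfbp5 (ENSMUSG00000026185; chromosome 1, 72857932 to 72874884, minus strand) encodes a binding protein that is abundant in muscle and also binds extracellular matrix. It had the highest mean of the 10 genes per kilobase of exon in every group, with a value of 113 ± 12.4 CPM per kilobase (SD, n = 4) in unoperated BL6. In plain CPM it went from 663, 648, 621 and 789.6 to 288, 255, 276 and 375 with surgery in BL6, with no overlap. This was a fall of 1.19 on the log2 scale (SE 0.19, adjusted p = 0.000108, edgeR's QL test). In MRL it went from 701, 711, 804 and 559 CPM to 370.2, 346, 435 and 642 CPM. Only replicate 4 among the operated MRL samples reached the range of the unoperated ones. The log2 fold change in MRL was -0.63 (SE 0.19, adjusted p = 0.0155, same test), and -0.86 without that replicate. The MRL call was lost with scaling by total counts alone, and without replicate 3 of unoperated MRL or replicate 1 of operated MRL.

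The 2 binding proteins thus moved in opposite directions in BL6. The ratio of Igfbp5 to Igfbp4 counts per kilobase was 7.79 to 16.9 in unoperated BL6 samples and 0.612 to 2.38 in operated ones, where it was below 1 in replicate 4. The same ratio was 5.12 to 9.56 in unoperated MRL and 1.56 to 2.92 in operated MRL. The ratio separated operated from unoperated samples in both strains, replicate 4 of operated MRL included. Igfbp5 per kilobase against Igf1 per kilobase was 34.4 to 172 in unoperated BL6, 7.18 to 23.8 in operated BL6, 30.9 to 65.7 in unoperated MRL and 11.6 to 20.2 in operated MRL, again without overlap within a strain.

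Insr (ENSMUSG00000005534; chromosome 8, 3122061 to 3279617, minus strand) encodes the insulin receptor. It was at 117, 105, 122 and 126 CPM in unoperated BL6 and 50.4, 54.8, 41.4 and 33.6 CPM in operated BL6, with a wide gap between the groups. It fell by 1.38 on the log2 scale (SE 0.20, adjusted p = 5.13e-05, edgeR's QL test). The unoperated MRL samples held 67.6, 96.9, 107 and 93.1 CPM and the operated ones 47.3, 52.6, 47.3 and 84.4 CPM. The overlap came from replicate 4 of operated MRL, which lay above replicate 1 of unoperated MRL. The MRL change was -0.65 (SE 0.20, adjusted p = 0.0155, same test). It was -0.89 without replicate 4 of operated MRL and -1.02 without the 3 samples that stood apart, both called. The MRL call was lost without replicate 3 of unoperated MRL and without replicate 1 or 3 of operated MRL, where the highest adjusted p by edgeR was 0.0559.

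Igf1r (ENSMUSG00000005533; chromosome 7, 67952827 to 68233668, plus strand) encodes the IGF-1 receptor and had the lowest mean of the 10 genes per kilobase in every group. In unoperated BL6 its SD overlapped that of Igf1, which lay below Igf1r per kilobase in 3 of the 4 samples. It was at 19.4, 20.2, 22.1 and 20.3 CPM in unoperated BL6 and 18.3, 16.2, 13.5 and 15.4 CPM in operated BL6, a small fall without overlap. The log2 fold change was -0.37 (SE 0.12, adjusted p = 0.0124, edgeR's QL test). With scaling by total counts alone it was -0.24 and not called. In MRL the values were 14.2, 14.3, 17.3 and 13.2 CPM before and 14.7, 10.8, 14.3 and 12.5 CPM after surgery, which overlapped, with a log2 fold change of -0.17 that was not called. Because Insr fell further than Igf1r, the ratio of Igf1r to Insr per kilobase was 0.132 to 0.157 in unoperated BL6 and 0.242 to 0.374 in operated BL6. It was 0.116 to 0.172 in unoperated MRL and 0.121 to 0.255 in operated MRL, where the lowest operated value was that of replicate 4.

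Irs1 (ENSMUSG00000055980; chromosome 1, 82233101 to 82291416, minus strand) encodes the adaptor between these receptors and PI3-kinase, and had the largest fall of the 10 genes in BL6. It was at 153, 91.6, 72.1 and 96.2 CPM in unoperated BL6 and at 36.5, 34.0, 35.3 and 36.8 CPM in operated BL6, where the 4 samples were close to each other. The log2 fold change was -1.53 (SE 0.27, adjusted p = 0.000208, edgeR's QL test). In MRL it was at 77.8, 65.3, 77.0 and 56.7 CPM before surgery and at 40.9, 48.9, 47.4 and 105.5 CPM after it. Of the operated MRL samples 3 lay below all unoperated ones and replicate 4 lay above them. The MRL value of -0.19 (SE 0.27) was not called (adjusted p = 0.575, same test). Without replicate 4 it was -0.60 and called (adjusted p = 0.0202, edgeR's QL test). Irs1 per kilobase against Insr per kilobase stayed in overlapping ranges, at 0.891 to 1.97 in unoperated BL6, 0.933 to 1.65 in operated BL6, 0.914 to 1.73 in unoperated MRL and 1.30 to 1.88 in operated MRL. Irs1 shares exon bases with Gm9747 on the opposite strand, and as the use of strand in counting is not given, reads of the 2 genes cannot be told apart.

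Akt1 and Akt2 encode 2 forms of the kinase; Akt2 is the form most tied to glucose uptake in muscle. Akt1 (ENSMUSG00000001729; chromosome 12, 112653821 to 112674884, minus strand) was at 65.4, 63.9, 54.5 and 47.7 CPM in unoperated BL6 and 59.4, 58.6, 60.1 and 89.5 CPM in operated BL6. In MRL it was at 61.6, 68.4, 55.5 and 79.0 CPM before and 60.1, 60.7, 78.5 and 77.0 CPM after surgery. The groups overlapped in both strains, and the log2 fold changes of 0.21 (SE 0.16) and 0.06 (SE 0.16) were not called. Akt2 (ENSMUSG00000004056; chromosome 7, 27591552 to 27640826, plus strand) was at 120.0, 122, 146 and 145 CPM in unoperated BL6 and 76.2, 95.8, 72.3 and 69.7 CPM in operated BL6, without overlap. It fell by 0.76 on the log2 scale (SE 0.20, adjusted p = 0.00341, edgeR's QL test). In MRL it was at 81.3, 107, 104 and 109 CPM before and 59.9, 66.1, 64.9 and 123 CPM after surgery. Replicate 4 of operated MRL was again the exception, here above every unoperated MRL sample. The MRL value of -0.35 was not called (adjusted p = 0.153, same test), and without that replicate it was -0.65 and called (adjusted p = 0.00109). The pseudogene Akt2-ps matches 1449 bases of the Akt2 transcript at 98.6% identity, so counting may have split reads between them.

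The ratio of Akt2 to Akt1 per kilobase was 1.05 to 1.75 in unoperated BL6 and 0.448 to 0.940 in operated BL6, without overlap. The exon lengths used were 7131 bases for Akt2 and 4098 for Akt1, whereas the longest Akt2 transcript has 4544 bases. Which form is more abundant depends on the length used, so only the fall of the ratio is read. In MRL the ratio was 0.759 to 1.07 before and 0.475 to 0.918 after surgery, which overlapped. Akt2 and Insr varied together, with a Pearson r of 0.907 over the 16 samples and 0.894 within groups, points that share libraries and depth.

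**Figure D3:**
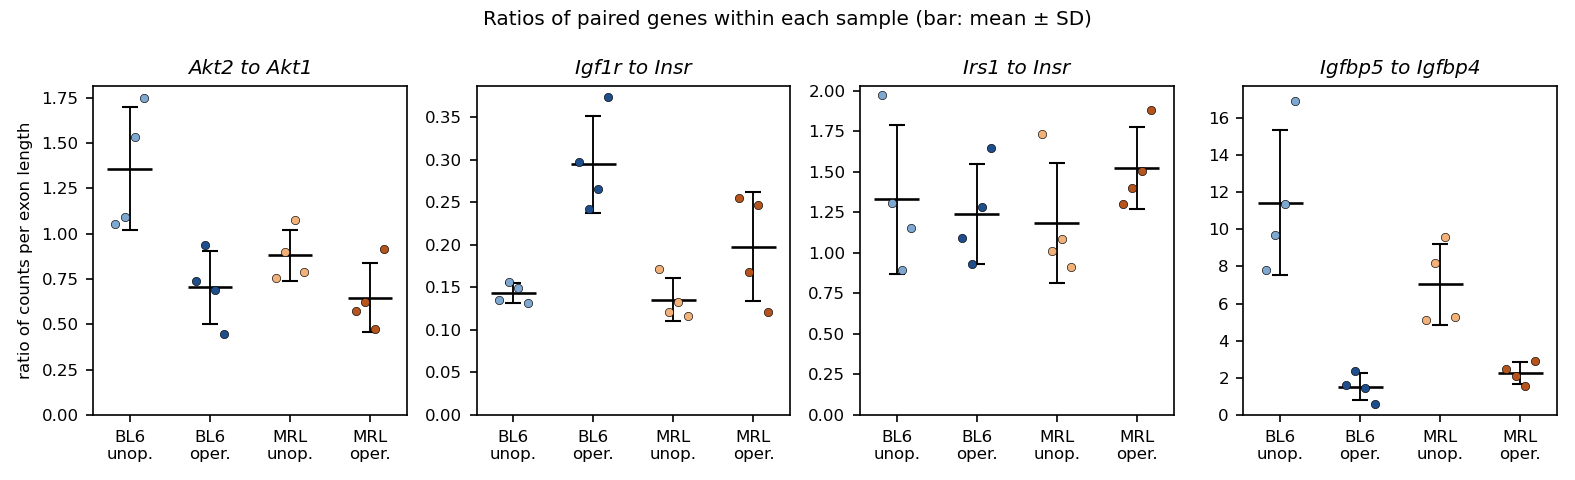
Ratio of counts per kilobase of exon between pairs of the genes in each sample (points in the order of replicates 1 to 4, bars mean ± SD, n = 4, linear axes from 0). The ratio of Akt2 to Akt1 lies at or above 1.05 in unoperated BL6 and at or below 0.940 in operated BL6, and the ratio of Igfbp5 to Igfbp4 lies lower in the operated samples of both strains. Whether a ratio lies above or below 1 depends on the exon lengths used.

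Ddit4 (ENSMUSG00000020108; chromosome 10, 59949669 to 59951834, minus strand), whose product REDD1 is induced by hypoxia, glucocorticoids and other stresses, was at 14.3, 17.5, 31.3 and 32.5 CPM in unoperated BL6. In operated BL6 it was at 66.1, 66.0, 68.9 and 68.3 CPM, all well above the unoperated samples and within a narrow range. It rose by 1.49 on the log2 scale (SE 0.28, adjusted p = 0.00033, edgeR's QL test). In MRL it was already at 57.1, 65.5, 41.4 and 35.6 CPM without surgery, and at 63.7, 56.2, 93.1 and 40.9 CPM after it. The MRL groups overlapped widely, and the log2 fold change of 0.35 was not called (adjusted p = 0.307, same test).

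Eif4ebp1 (ENSMUSG00000031490; chromosome 8, 27260329 to 27276674, plus strand) was at 24.5, 40.4, 37.3 and 31.2 CPM in unoperated BL6 and 34.3, 58.7, 29.6 and 33.5 CPM in operated BL6. In MRL it was at 40.01, 41.7, 33.0 and 43.8 CPM before and 23.6, 32.9, 39.0 and 33.2 CPM after surgery. The groups overlapped in both strains. Its log2 fold changes of 0.23 (SE 0.21) in BL6 and -0.30 (SE 0.21) in MRL were not called, and the BL6 value turned to -0.04 without replicate 2 of the operated group. Gm14143, which is not among the genes counted, matches 357 bases of its transcript at 93.3% identity.

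Promoters are shown for 3 genes that changed in BL6 and did so in different ways: Igfbp4, with the largest rise of the 10, Irs1, with the largest fall, and Ddit4, which also differed between the strains without surgery. RefSeq start sites of GRCm38.p6 matched 8 of the 10 genes, with 12 start windows, and no entry was matched for Insr and Eif4ebp1. Each line gives the 250 bases before the start, 5′ to 3′ on the gene's own strand, for Ddit4 only as far as its first annotated exon base. They lie at chr11:99040994-99041243 (plus strand), chr1:82291440-82291689 (minus strand) and chr10:59951835-59952020 (minus strand). Capitals mark the motifs found.
Igfbp4: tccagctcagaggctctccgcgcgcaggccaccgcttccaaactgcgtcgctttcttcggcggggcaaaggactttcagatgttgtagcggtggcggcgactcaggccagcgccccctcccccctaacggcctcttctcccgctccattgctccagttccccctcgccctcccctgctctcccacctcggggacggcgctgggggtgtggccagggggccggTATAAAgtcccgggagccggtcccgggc
Irs1: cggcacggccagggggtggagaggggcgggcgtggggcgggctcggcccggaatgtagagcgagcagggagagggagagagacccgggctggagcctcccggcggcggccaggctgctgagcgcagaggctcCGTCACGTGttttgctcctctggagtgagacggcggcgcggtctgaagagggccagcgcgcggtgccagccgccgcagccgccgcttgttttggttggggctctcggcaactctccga
Ddit4: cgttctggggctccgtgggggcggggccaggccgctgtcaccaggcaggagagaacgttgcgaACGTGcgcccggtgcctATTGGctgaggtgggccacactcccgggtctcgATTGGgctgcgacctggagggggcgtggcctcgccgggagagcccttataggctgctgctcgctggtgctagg
The motifs searched, on both strands, were TATAAA, found in TATA boxes, ACGTG, the core of hypoxia response elements, TGACG, the core of cAMP response elements, CCAAT, a common promoter element, CAGCTG, an E-box of the MyoD type, and TGTTTAC, a FoxO core. Over the 250 bases before 32851 mouse starts TATAAA occurred in 12.4%, ACGTG in 16.6%, TGACG in 17.8%, CCAAT in 33.8% and TGTTTAC in 3.17% of windows, and CAGCTG in 4271 windows. Igfbp4 had TATAAA 28 bases before its start. Irs1 had ACGTG on both strands, at 115 and 114 bases before the start, overlapping a TGACG on the minus strand at 118. Ddit4 had ACGTG at 187 bases and CCAAT, on the opposite strand, at 170 and 137 bases before its start. A match is a description of letters and no evidence of binding, since no binding was measured.

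**Figure D4:**
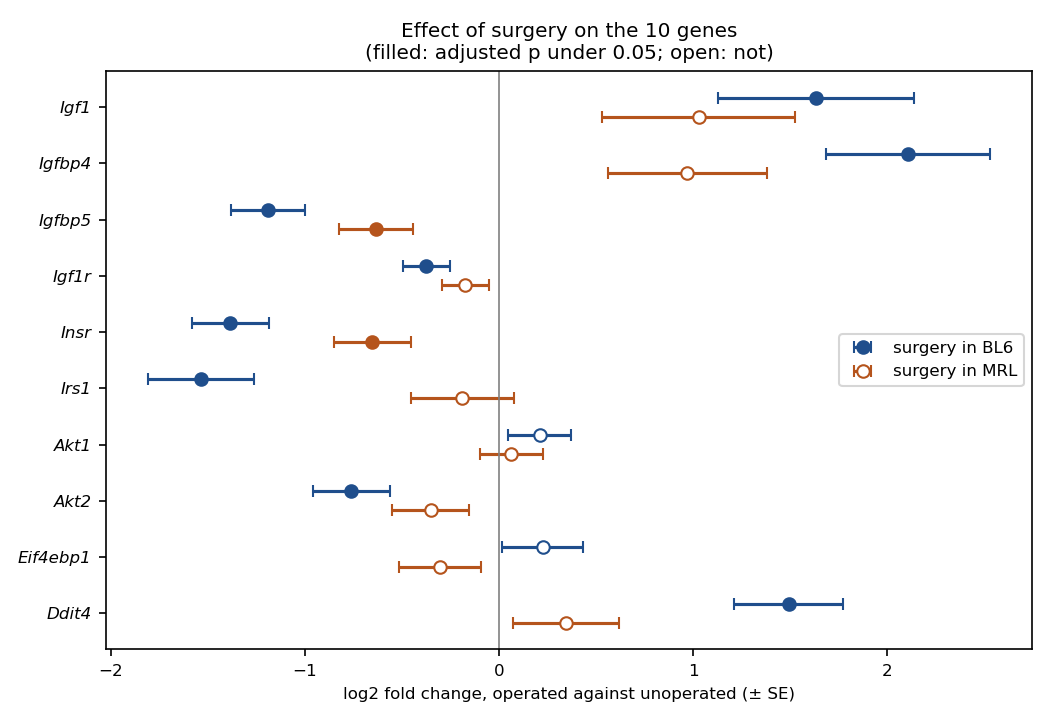
Log2 fold change of operated against unoperated samples (± SE, edgeR's quasi-likelihood model) for each gene in BL6 and MRL, filled where the adjusted p was under 0.05. In BL6 the values run from -1.53 for Irs1 to 2.11 for Igfbp4, and in MRL from -0.65 for Insr to 1.03 for Igf1.

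The design asks whether the strains respond differently, which the interaction (the MRL effect minus the BL6 effect) tests directly. None of the 10 genes was called in it by edgeR's QL test, where 0.248% of all genes were. An unadjusted p under 0.05 was found for 3 of the 10, beside 1843 of all 11709 genes tested. Irs1 had an interaction of 1.35 (SE 0.38, adjusted p = 0.137, edgeR's test), Ddit4 one of -1.15 (SE 0.39, adjusted p = 0.203) and Insr one of 0.73 (SE 0.28, adjusted p = 0.242). DESeq2 called Irs1 (adjusted p = 0.0320), and no other alternative called any of the 10. Without the 3 samples that stood apart, the interaction of Irs1 was 1.03 and that of Insr 0.27. For the other 7 genes the interaction ran from -1.14 for Igfbp4 to 0.56 for Igfbp5. The genes called in BL6 and not in MRL are therefore not shown to differ between strains.

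Leaving out the 3 samples that stood apart, surgery in BL6 raised 2 of the 10 genes and lowered 5, beside 67.6% of all genes called. In MRL it then raised 2 (Igf1 and Igfbp4) and lowered 4 (Igfbp5, Insr, Irs1 and Akt2), beside 62.4% of all genes. Akt2 in MRL then had a log2 fold change of -0.75 (adjusted p = 0.000103, edgeR's QL test). The samples left out were picked after seeing the data. They include replicate 4 of operated MRL, the highest of its group for Insr, Irs1 and Akt2. A stronger fall of these genes in MRL therefore follows in part from that choice and is no separate evidence. The part of the low mitochondrial share of replicate 4 of operated MRL in these results was not tested. Its adipocyte markers, at 1367 CPM summed, were far above the 271 to 394 CPM of unoperated MRL, whereas its endothelial markers, at 378 CPM, were closer to the 263 to 362 CPM of that group than to the 764 to 921 CPM of the other operated MRL samples.

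Between the strains without surgery, 2 of the 10 genes were called by edgeR's QL test, beside 10.4% of all genes. Ddit4 was higher in MRL, 49.9 ± 13.8 against 23.9 ± 9.34 CPM (SD, n = 4), and its log2 fold change was 1.06 (SE 0.28, adjusted p = 0.0221, edgeR's QL test). Igf1r was lower in MRL, 14.7 ± 1.77 against 20.5 ± 1.16 CPM, a log2 fold change of -0.47 (SE 0.12, adjusted p = 0.0177, same test). Neither gene overlapped between the strains, and Akt2, lower in MRL, did not overlap either but was not called (adjusted p = 0.217, same test). Among all genes tested, 25.1% did not overlap. The Ddit4 call was lost without replicate 1 or 2 of unoperated BL6 and without replicate 1 or 2 of unoperated MRL, where its log2 fold change stayed at or above 0.87. The Igf1r call was lost without replicate 3 of unoperated BL6, without replicate 2 or 4 of unoperated MRL, and with scaling by total counts alone. That scaling moved the median of all genes to 0.15 in this comparison and to 0.18 for surgery in BL6, and split the strain calls of all genes into 742 higher and 313 lower, against 588 and 628.

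After surgery none of the 10 genes was called between strains by that test, beside 12.9% of all genes. An unadjusted p under 0.05 was found for 3 of the 10, beside 3123 of all 11709 genes tested. Irs1 was the one gene of the 10 whose groups did not overlap, beside 13.6% of all genes: the operated MRL samples, from 40.9 CPM upward, all lay above the highest operated BL6 sample at 36.8 CPM. Its log2 fold change was 0.77 (adjusted p = 0.0727, edgeR's QL test), and 0.35 without replicate 4 of operated MRL. It was called by DESeq2 and without replicate 1 of operated MRL. Igfbp5 was 0.59 higher in MRL (adjusted p = 0.0550, same test). It was called by DESeq2, without replicate 4 of operated BL6, without replicate 1 or 2 of operated MRL, and without the 3 samples that stood apart. For Ddit4 the operated groups were at similar means, 67.3 ± 1.50 CPM in BL6 and 63.4 ± 21.9 CPM in MRL (SD, n = 4), with a wider spread in MRL.

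Of 86 further genes of the pathway, 79 were among the genes counted; Igf2, Igfbp1, Pappa, Stc1, Prr5l, Rps6 and Eif4ebp3 were not analysed here. Surgery in BL6 called 14 of the 79 higher (17.7%) and 43 lower (54.4%), beside 35.1% and 32.8% of all genes, with a median log2 fold change of -0.39. In MRL it called 9 higher (11.4%) and 28 lower (35.4%), beside 22.3% and 22.7% of all genes, with a median of -0.22. None of the 79 was called in the interaction by edgeR's QL test. An unadjusted p under 0.05 was found for 15 of the 79, beside 1843 of all 11709 genes tested. Without the 3 samples that stood apart, surgery called 15 higher and 43 lower in BL6 and 16 higher and 36 lower in MRL. Of all genes, 67.6% and 62.4% were then called in that order.

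The list counts in this paragraph stand beside 67.9% of all genes called in BL6 and 45% in MRL. A list of 8 further IGF genes held Igf2r, Igfbp2, Igfbp3, Igfbp6, Igfbp7, Igfals, Pappa2 and Stc2, and no ligand. Of these 8, 5 were higher and 3 lower in BL6 (median 1.42), and 2 were higher and 2 lower in MRL (median 0.73). Without the 3 samples that stood apart, 5 were higher and 3 lower in each strain, beside 67.6% of all genes called in BL6 and 62.4% in MRL. Pappa2, a protease that cuts IGF-binding proteins, rose by 4.74 in BL6 on the log2 scale, although its groups overlapped. It was at 0.0812 to 0.421 CPM in unoperated BL6 and 0.349 to 23.5 CPM in operated BL6, and the log2 fold change was 2.14 without replicate 4 of operated BL6, still called. The lowest unoperated value lay in the range of the smallest level that can be read (0.0689 to 0.123 without TMM factors). The size of the rise is therefore uncertain. Igfbp7, an IGF-binding-protein-related secreted protein, rose by 2.33 in BL6 and 1.75 in MRL, where it went from 60.6 ± 13.5 to 203 ± 44.7 CPM. Igfals, which stabilises circulating IGF complexes, had log2 fold changes of -1.96 in BL6 and -1.31 in MRL, both called. Of 14 receptor adaptor and PI3-kinase genes, 0 were higher and 5 lower in BL6 and 3 higher and 2 lower in MRL. In this list Pdpk1, the kinase that phosphorylates Akt, fell by 1.22 in BL6 and had a value of -0.58 in MRL that was not called. Pik3cd, a catalytic PI3-kinase subunit best known in blood cells, fell by 0.59 in MRL, a call lost without replicate 3 of unoperated MRL or replicate 1 of operated MRL. Among 12 phosphatases, 1 was higher and 6 lower in BL6, and 0 higher and 4 lower in MRL. Inpp5d, a lipid phosphatase best known in blood cells, rose by 1.72 in BL6, with 0.63 and no call in MRL. Ptpn11, a tyrosine phosphatase, fell by 1.10 in BL6 and 0.71 in MRL, and by 1.12 in MRL without the 3 samples that stood apart.

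The counts of the lists downstream of Akt stand beside 67.9% of all genes called in BL6 and 45% in MRL. Of 22 genes of the mTOR complexes and their regulators, 3 were higher and 13 lower in BL6 (median -0.46), and 1 higher and 8 lower in MRL (median -0.19). The related genes Castor1 and Castor2, of which Castor1 encodes an arginine sensor that restrains mTOR complex 1, moved apart. Castor1 rose by 1.54 in BL6 and 1.20 in MRL, from 3.83 ± 0.891 and 3.36 ± 1.07 CPM (SD, n = 4). Castor2 fell by 1.65 and 1.30, from 128 ± 25.3 and 84.7 ± 20.4 CPM. All 9 translation genes were called in BL6, 2 higher and 7 lower (median -0.62), and 2 were higher and 5 lower in MRL (median -0.40). The 4 of these genes named here were called in both strains. The scaffold Eif4g1 fell by 1.58 in BL6, from 726 ± 104 to 243 ± 53.8 CPM, and by 0.99 in MRL, or 1.50 without the 3 samples that stood apart. Rps6kb2, an S6 kinase, rose by 0.58 and 0.31, and the MRL call was lost without replicate 1, 2 or 3 of operated MRL. The relative of 4E-BP1, Eif4ebp2, fell by 1.23 and 1.13 in that order, and Pdcd4, an inhibitor of translation initiation, rose by 0.38 and 0.43, with 0.24 in BL6 without the 3 samples. Of 14 Akt targets in glucose handling and FoxO control, 3 were higher and 9 lower in BL6 (median -0.60) and 1 higher and 7 lower in MRL (median -0.51). Tbc1d1, which controls transport of glucose carriers, fell by 1.50 in BL6 and 1.57 in MRL, and Bad, a cell death factor inactivated by Akt, rose by 0.85 and 0.44. The MRL call of Bad was lost on leaving out any 1 of the 8 MRL samples.

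**Figure D5:**
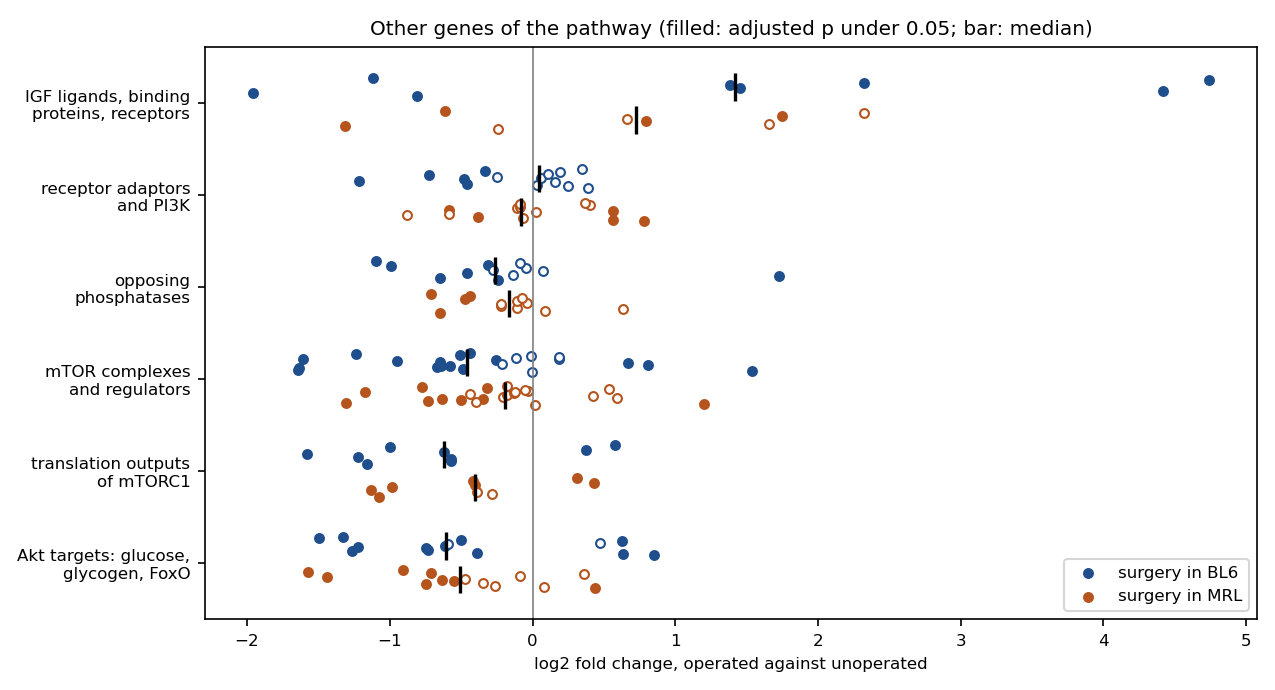
Log2 fold change with surgery of the 79 further genes, in 6 lists, with BL6 above MRL in each list; filled points had an adjusted p under 0.05 in edgeR's QL test and black bars are medians. The medians of the mTOR, translation and Akt target lists lie below 0 in both strains, at -0.46, -0.62 and -0.60 in BL6.

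Other cell types moved with surgery as well. Beside 35.1% of all genes called higher in BL6 and 22.3% in MRL, all 5 adipocyte markers counted were called higher in both strains, 5 of 6 endothelial markers in BL6 and 6 of 6 in MRL, and 6 of 6 Schwann cell markers in BL6 and 5 of 6 in MRL. All 3 satellite cell and myoblast markers counted were called lower in BL6 and 2 of 3 in MRL, where Pax7 (0.21) was not called. These counts stand beside 32.8% and 22.7% of all genes called lower. Of 8 muscle fibre markers, 4 were called lower in BL6 and 2 in MRL, beside the same 32.8% and 22.7% of all genes. None was called higher, but Mb (0.34) and Myh7 (0.16) had positive log2 fold changes in BL6. In MRL, Mb (0.40), Myh1 (0.30), Myh2 (0.22) and Myh7 (2.72) did. Muscle fibre markers summed to 88585 to 126331 CPM in unoperated BL6 and 39878 to 84307 in operated BL6, so their sum fell between the same groups as Insr, Irs1, Akt2 and Igfbp5. In MRL they summed to 78683 to 92054 CPM before and 50027 to 69414 CPM after surgery, with replicate 4 the highest of the operated samples. The part of this shift in the results for the 10 genes was not tested.

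The genes with the pattern most like each of the 10 were sought among 9608 genes with a mean of 5 CPM or more, by Pearson r of log2 CPM over the 16 samples, given as a description. Igf1 was most like Mob1a (0.965), Dpt (0.956) and Cd68 (0.953), of which Dpt is on the fibroblast list and Cd68 on the macrophage list. Igfbp4 was most like Efemp2 (0.989), Penk (0.988) and Ninj1 (0.985). Insr was most like Kif16b (0.989), with Cdnf at 0.988, and Akt2 most like Agpat3 (0.983), Actr1b (0.978) and Plec (0.977). The other 6 genes had lower leading values: Nr3c1, the glucocorticoid receptor, for Igfbp5 (0.959), Topors for Irs1 (0.928), Errfi1 for Ddit4 (0.917), Cntrl for Igf1r (0.913), Eri3 for Eif4ebp1 (0.894) and Gna12 for Akt1 (0.863). After each group's mean was taken out, these were, in that order, 0.796, 0.815, 0.678, 0.697, 0.920 and 0.847. For the first genes named beside Igf1, Igfbp4, Insr and Akt2 they were 0.918, 0.978, 0.955 and 0.972.

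The authors' deposited table called the same 8 of the 10 genes in BL6 (operated against unoperated, false discovery rate under 0.05), where it called 64.9% of all genes. For surgery in MRL the authors' deposited table called 4, adding Igf1 (log2 fold change 1.39, false discovery rate 0.0105) and Igfbp4 (1.29, 0.00165) to Insr and Igfbp5, beside 56.4% of all genes. Ddit4 and Igf1r were its calls between unoperated strains, and Igfbp5 (0.66, false discovery rate 0.0388) its call between operated ones. In both surgery comparisons all 10 genes had the same sign in the authors' deposited table as in the values above. Between unoperated strains 9 did, and between operated strains 8, where Igfbp4 (0.17 against -0.43) and Akt2 (-0.07 against 0.0003) did not. Sizes differed as well. The authors' Igf1 was 1.13 in BL6 and 1.39 in MRL, against 1.63 and 1.03 above, and their Igfbp4 in BL6 was 1.51 against 2.11.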

How the data were processed

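Per the file headers, the deposited count table holds 1 column per sample and whole-number counts per gene, with no normalization recorded. The submitters' processing notes name mm10, FastQC, STAR and edgeR with no role or version, and the counting program and the use of strand are not given in the sources used here. A second deposited table gives, per the file headers, log2 fold changes, p-values and false discovery rates for 4 comparisons by the authors.

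From the counts, R 4.3.3 with edgeR 4.0.16 was used. TMM factors scaled the libraries, filterByExpr with a minimum count of 10 kept 11709 of 11710 genes, and the quasi-likelihood fit took all 16 samples with a coefficient for each of the 4 groups. P-values were adjusted by Benjamini-Hochberg over all genes tested, and calls were made at an adjusted p under 0.05. Depth was 24323862 to 43552964 counts per sample; floors cover counting error only. Groups came from the strain and surgery labels.

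The 10 genes and the other lists were chosen with earlier results of these data known. By rule, the text names all 10 and, of each further list, the called gene with the largest rise and fall in each strain; Pearson r named 3 alike genes per member, of which only the first is printed for 6. Some genes these rules picked are not reported here and were not replaced. Alternatives were DESeq2 1.42.0, limma 3.58.1 (voom), other scalings, no mitochondrial genes, no filter, only the groups compared, a replicate block and leaving out each sample. Leaving out the 3 samples that stood apart, and all leave-outs for genes beyond the 10, were chosen after seeing the data. Replicate numbers come from the titles, which do not say that samples of 1 number belong together, so they were not treated as pairs. Annotation was GENCODE M21 (GRCm38). Per kilobase values use the union of exons, so the order of genes in them depends on that length. Likeness used log2 CPM with a prior count of 2.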

Additional observations from a re-analysis of the deposited data

Results flagged for a closer look

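Among the 40 sets of 4 samples (10 genes in 4 groups), 7 held a sample far from the other 3, or 17.5%, each time the highest. The cutoff has a nominal rate of about 5% for normally distributed values in independent sets. These sets share libraries and hold CPM without a log scale, so the 17.5% cannot be read against that rate. The share over all genes was not computed. Of the 7, 3 were replicate 4 of operated MRL: Insr at 84.4 CPM against 47.3 to 52.6, Irs1 at 105.5 CPM against 40.9 to 48.9, and Akt2 at 123 CPM against 59.9 to 66.1. Replicate 4 of operated BL6 gave Igfbp4 at 451 CPM against 78.8 to 141 and Akt1 at 89.5 CPM against 58.6 to 60.1. Igf1 was at 31.8 CPM in replicate 1 of unoperated BL6 against 5.95 to 9.41, and Eif4ebp1 at 58.7 CPM in replicate 2 of operated BL6 against 29.6 to 34.3.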

How the results depend on the processing

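Of 1240 values of the 10 genes under the alternatives, 1162 kept their direction and side of the threshold, 17 lost a call, 26 gained one and 35 turned direction, none of which was a called value. Surgery in BL6 lowered Insr, Irs1, Igfbp5 and Akt2 and raised Igfbp4 and Ddit4 in every alternative run. The interaction called 29 genes, but 250 with DESeq2, 14 with total counts, 67 without the 3 samples that stood apart, and 1 to 69 on leaving out each sample. The 69 came without replicate 2 of operated BL6. Surgery in MRL called 3490 to 6145 genes on leaving out each sample, the fewest without replicate 3 of operated MRL. Fitting only the groups compared called 2438 genes between unoperated and 575 between operated strains.

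A fit with replicate block called 2 genes in the interaction, and no call among the 10 genes changed. Same-numbered samples correlated on average at -0.141 (BL6) and 0.092 (MRL) across surgery, and at 0.16 (unoperated) and 0.165 (operated) across strains, against -0.0463 and -0.0443 for other numbers there. In each pair of groups some same-numbered samples correlated below 0.1, so the numbers were not read as pairs. Under the replicate block the operated strain difference of Akt2, near 0, was -0.0451.

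That Akt2 value was -0.0171 with DESeq2, -0.0170 with DESeq2-type size factors, -0.0162 without mitochondrial genes, -0.0155 with only the groups compared, -0.0770 with voom, and -0.34 without the 3 samples. Without those samples, Akt1 in MRL was -0.0376, the interactions of Igf1 and Akt2 were 0.252 and -0.0144, and the operated strain differences of Igfbp4 and Ddit4 were 0.314 and 0.0903. Leaving out each sample gave -0.0395 to 0.337 for Eif4ebp1 in BL6, -0.00816 to 0.162 for Akt1 in MRL, -1.42 to 0.00398 for Igf1 and -0.222 to 0.0368 for Akt1 in the interaction, and -0.0558 to 0.113 for Igfbp5 between unoperated strains. Between operated strains it gave -0.31 to 0.11 for Akt2, -0.0209 to 0.223 for Akt1, -0.0241 to 0.840 for Igf1, -0.69 to 0.36 for Igfbp4 and -0.331 to 0.0695 for Ddit4. The cause of these turns was not tested. Total-count scaling split the operated strain calls of all genes into 994 higher and 383 lower, against 890 and 617. Depth did not limit the 10 genes, whose lowest count was 225.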
